A study of Homo sapiens with 6 samples.

Results

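Mitochondrial complex I was followed through 56 genes chosen by name: 7 subunits encoded by mitochondrial DNA (mtDNA), 36 subunits encoded in the nucleus and 13 assembly factors, the proteins that help build the complex without staying in it. The choice used gene names and no measured value, but it was made with earlier results of these data known. The table of footprint counts listed 19330 transcripts, 1 per gene, and 55 of the 56 genes were among them. NDUFB5 was not analysed here. All 55 passed the filter on low counts (a minimum of 10 counts), which left 9202 genes for testing.

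Ribosome profiling (Ribo-Seq) sequences the short stretches of mRNA that ribosomes protect from a nuclease, so footprint counts on a coding sequence measure how many ribosomes occupy it. A change in footprints can come from more mRNA or from more ribosomes per mRNA, and these counts cannot tell these apart. The cells were K562, a human chronic myelogenous leukemia line. The sgN6AMT1 cells received the lentiviral vector pLentiCRISPRv2 with a guide against N6AMT1, and the sgCtrl cells received the same vector with guides against the olfactory receptor genes OR11A1 and OR2M49 (spelled OR2M4 in the study's methods). Both groups went through puromycin selection for 48 h and were harvested 10 days after infection. There were 3 sgCtrl and 3 sgN6AMT1 libraries, which the study describes as independent transductions. The labels do not say which control guide each sgCtrl library carried, and no clonal selection is described.

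Complex I takes electrons from NADH, passes them through a flavin and a chain of iron-sulfur clusters to ubiquinone, and pumps protons across the inner mitochondrial membrane. Its peripheral arm is made of the NADH-binding N module and the ubiquinone-reducing Q module, and its membrane arm has a proximal and a distal part. The mtDNA-encoded subunits form the core of the membrane arm and are translated by mitochondrial ribosomes. All other subunits and the assembly factors are translated in the cytosol and imported. N6AMT1 is a methyltransferase whose known substrates include the cytosolic translation release factor eRF1. The comparison asked how footprints on each part of complex I changed in cells depleted of N6AMT1.

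The libraries held 1821356 to 2969736 counts. N6AMT1 itself had 25, 24 and 34 counts in the sgCtrl libraries and 10, 9 and 8 counts in the sgN6AMT1 libraries, a log2 fold change of -1.51 (edgeR quasi-likelihood test, adjusted p = 6.69e-05, SE 0.31). Hemoglobin genes and GATA1, which K562 cells are known to express, were present in every library (HBG1 at 9553 CPM, counts scaled to library size, in sgCtrl and 9483 in sgN6AMT1). Among markers of other cell types, MS4A1 and KRT5 had 0 counts in all libraries, and CD3E and ALB had at most 10 counts in any library. CD3D and EPCAM were detected, at means of 35.7 and 177 CPM in sgCtrl and 29.2 and 184 CPM in sgN6AMT1. Each of the 11 K562 markers was also detected in every library, but 2 of them were higher and 4 lower in sgN6AMT1 by edgeR. This was 54.5% of the 11, against 26.9% of all genes tested. Among the markers, HBE1 went from 3567 to 4977 CPM, GATA1 from 310 to 253 CPM, TFRC from 1952 to 1551 CPM and KLF1 from 123 to 95.3 CPM. The part of this in the complex I values was not tested.

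The ends of the coding sequences are shown for the 6 nuclear-encoded members past the threshold with the largest changes, because N6AMT1 acts on the cytosolic factor that reads their stop codons. Those of the 7 mtDNA-encoded subunits, whose stops are read by mitochondrial factors and not by eRF1, are shown to set them beside these. Each sequence is the last 24 coding bases in GENCODE release 44 on GRCh38, 5′ to 3′, and capitals mark the stop. In MT-ND1, MT-ND2, MT-ND3 and MT-ND4 the DNA encodes only the first base or bases of the stop, which is completed by the poly(A) tail of the mature mRNA. MT-ND6 is read from the minus strand and ends with AGG, and the other mtDNA-encoded subunits are read from the plus strand.
MT-ND1: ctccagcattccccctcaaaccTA
MT-ND2: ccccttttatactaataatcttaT
MT-ND3: aaaaaggattagactgaaccgaaT
MT-ND4: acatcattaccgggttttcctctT
MT-ND4L: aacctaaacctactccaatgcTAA
MT-ND5: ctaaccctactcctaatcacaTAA
MT-ND6: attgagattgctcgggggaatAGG
TIMMDC1: atagataaacaagacaaggacTGA
NDUFA11: ctgggttcgaaccccagaactTGA
NDUFA5: gatcagtggaaatggccaataTAA
NDUFB4: cgaacatttcacctctcatatTAA
NDUFC2: gaaaaattccatccaatacgtTGA
NDUFAF3: tctttgggccaagctgctcaaTGA

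The mtDNA genes lie at chrM:3307-4262 (MT-ND1), chrM:4470-5511 (MT-ND2), chrM:10059-10404 (MT-ND3), chrM:10760-12137 (MT-ND4), chrM:10470-10766 (MT-ND4L), chrM:12337-14148 (MT-ND5) and chrM:14149-14673 (MT-ND6). Each is a single-exon coding sequence. The end of MT-ND4L overlaps the start of MT-ND4, so footprints in the overlap cannot be assigned to either gene. The listed transcripts of the nuclear genes lie at chr3:119498547-119525090 on the plus strand (TIMMDC1), chr19:5891276-5903786 on the minus strand (NDUFA11), chr7:123536997-123557818 on the minus strand (NDUFA5), chr3:120596336-120602507 on the plus strand (NDUFB4), chr11:78068297-78079862 on the minus strand (NDUFC2) and chr3:49022121-49023495 on the plus strand (NDUFAF3). The NDUFA11 end is that of the listed transcript, which is not the MANE Select transcript of the gene and has another coding length, so it may not be the stop of the main product.

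Complex I genes moved in both directions. Of the 55 genes tested, 12 rose, 8 fell and 35 did not pass the threshold (quasi-likelihood test of edgeR, Benjamini-Hochberg adjusted over all 9202 genes, adjusted p under 0.05). Among all genes tested, 26.9% passed, 12.9% higher and 13.9% lower in sgN6AMT1. The 20 complex I genes past the threshold were 36.4% of those tested. Most of them were abundant, with 51 of the 55 at or above the median level of all genes tested (35.4 CPM). Of all genes at or above that median 36.3% passed, against 17.5% of those below it. The share among complex I genes was close to the first of these. Their own median was 134 CPM, so this split does not match them on abundance. The median log2 fold change was 0.01 over the members and 0.01 over all genes. In 21 of the 55 genes the 3 values of one group did not overlap the 3 of the other, against 37.5% of all genes tested. By class, the mtDNA-encoded subunits gave 0 higher and 2 lower of 7 (median log2 fold change -0.12), the nuclear subunits 9 higher and 5 lower of 35 (median 0.04) and the assembly factors 3 higher and 1 lower of 13 (median 0.00).

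**Figure D1:**
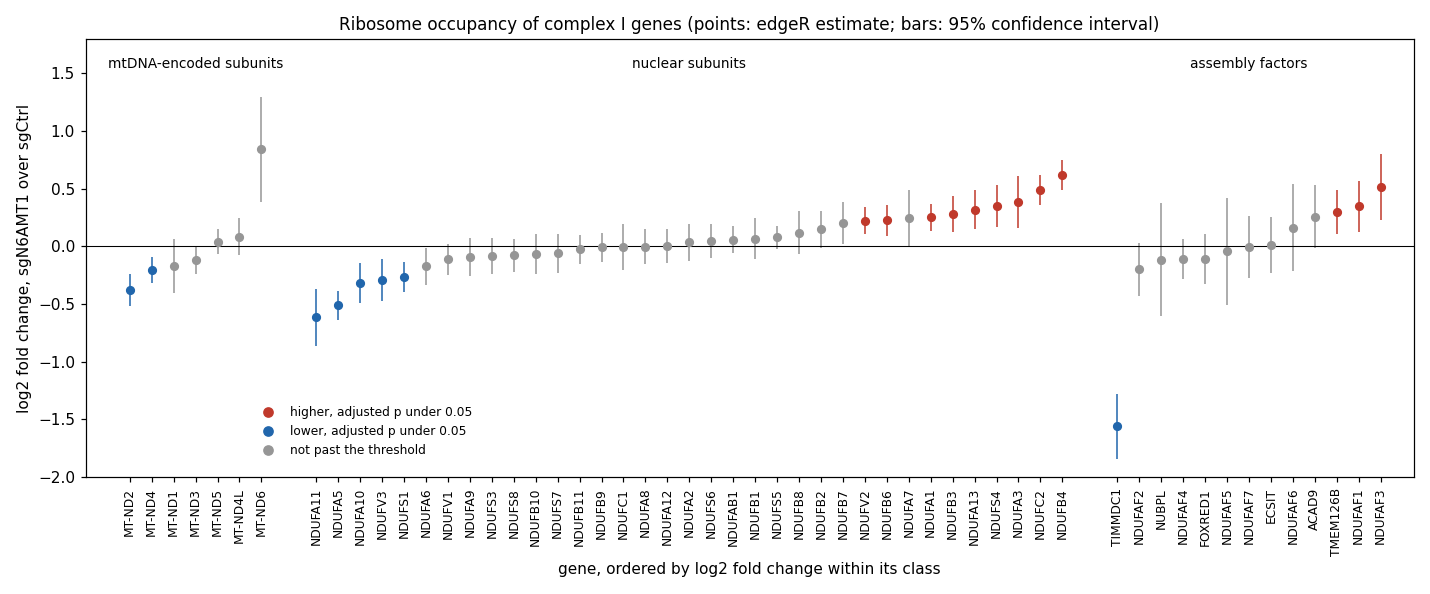
Log2 fold change of ribosome occupancy (sgN6AMT1 over sgCtrl, y axis) for the 55 complex I genes on the x axis, grouped by class and ordered within it. Points are edgeR estimates, bars are 95% confidence intervals, and colour shows the call. TIMMDC1 at -1.56 stands below all other members. MT-ND6 has the highest estimate and a wide interval, and it did not pass the threshold (edgeR adjusted p = 0.0691). The calls come from the adjusted p and not from the intervals.

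The mtDNA-encoded subunits did not share a direction. MT-ND2, a proton-pumping subunit of the proximal membrane arm, had 272, 261 and 217 CPM in sgCtrl and 211, 187 and 180 CPM in sgN6AMT1. Every sgN6AMT1 value was below every sgCtrl value, and occupancy fell by 0.38 on the log2 scale (edgeR adjusted p = 1.34e-05, SE 0.07). MT-ND4, a proton-pumping subunit of the distal arm, had 649, 632 and 548 CPM in sgCtrl and 584, 484 and 517 CPM in sgN6AMT1. The groups overlapped, and occupancy fell by 0.21 (edgeR adjusted p = 0.00345, SE 0.06). This call rested on 1 library: without sgN6AMT1 replicate 2 the log2 fold change was -0.15 and the edgeR adjusted p was 0.126, within a range of 1.59e-05 to 0.126 over the alternatives.

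The other plus-strand subunits did not pass the threshold. MT-ND1, which holds part of the ubiquinone channel, averaged 61.0 ± 10.1 CPM in sgCtrl and 55.2 ± 6.91 CPM in sgN6AMT1 (SD, n = 3 per group) (log2 fold change -0.17, 95% confidence interval -0.41 to 0.06). MT-ND3, at the junction of the arms, averaged 333 ± 23.9 and 308 ± 24.2 CPM (log2 fold change -0.12, interval -0.24 to 0.01). MT-ND4L averaged 134 ± 11.97 and 142 ± 8.06 CPM (log2 fold change 0.09, interval -0.08 to 0.25). MT-ND5, at the tip of the membrane arm, averaged 516 ± 39.0 and 532 ± 31.3 CPM (log2 fold change 0.04, interval -0.07 to 0.15), and its sign turned when sgCtrl replicate 3 was left out. In each of these genes the values of the groups overlapped.

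MT-ND6 stood apart from the other mtDNA-encoded subunits. It had 147, 195 and 139 CPM in sgCtrl and 361, 243 and 271 CPM in sgN6AMT1 (282 to 566 counts a library against 499 to 823). All sgN6AMT1 values lay above all sgCtrl values, and sgN6AMT1 replicate 1 was the highest. The log2 fold change of 0.84 (SE 0.23) missed the threshold in edgeR's quasi-likelihood test (adjusted p = 0.0691). It passed in 6 of 15 alternatives, among them DESeq2 (adjusted p = 0.00381), with adjusted p between 4.61e-26 and 0.174. The lowest of these came with the replicate number as a block, although the numbers were not found to pair the libraries. The counting is not stated to use strand, so footprints of MT-ND6 and RNA fragments of the opposite strand at this place cannot be told apart.

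**Figure D2:**
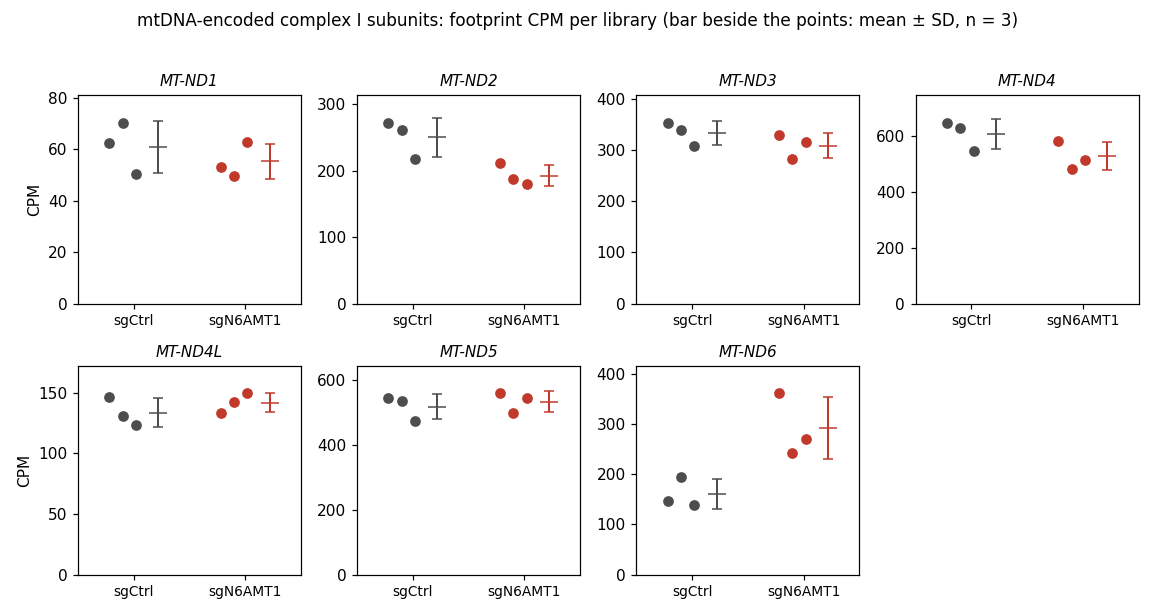
Footprint CPM (y axis, from 0) of the 7 mtDNA-encoded complex I subunits in each sgCtrl and sgN6AMT1 library. Points are libraries, in the order of replicates 1 to 3, and the bar beside them is the mean ± SD. MT-ND2 and MT-ND6 are the genes without overlap, in opposite directions.

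Summed over the 7 genes, the mtDNA-encoded subunits took 2064 ± 180.0 CPM in sgCtrl and 2049 ± 172 CPM in sgN6AMT1 (SD, n = 3 per group). Without MT-ND6 the sums were 1904 ± 164 and 1758 ± 112 CPM. MT-ND6 thus made up 7.76% ± 1.17 of the mtDNA-encoded complex I footprints in sgCtrl and 14.1% ± 1.8 in sgN6AMT1. The nuclear subunits summed to 6237 ± 121 CPM in sgCtrl and 6501 ± 61.4 CPM in sgN6AMT1, and the assembly factors to 640 ± 15.7 and 633 ± 19.9 CPM. The mtDNA-encoded sum divided by that of the nuclear subunits was 0.331 ± 0.035 in sgCtrl and 0.315 ± 0.025 in sgN6AMT1, a difference smaller than either SD. Without MT-ND6 this ratio was 0.306 ± 0.032 in sgCtrl and 0.270 ± 0.017 in sgN6AMT1, a difference larger than either SD. The libraries still overlapped, with a lowest sgCtrl value of 0.269 and a highest sgN6AMT1 value of 0.285. No test was run on these sums or ratios. The lysis buffer held cycloheximide, which the study describes as an inhibitor of cytosolic translation. Whether footprints of mitochondrial and cytosolic ribosomes were recovered alike was not tested, so neither ratio is one of protein synthesis. By RNA sequencing the study reported that all mtDNA-encoded mRNAs were lower in N6AMT1-depleted K562 cells. By labeling of new proteins at a later day it reported weaker mitochondrial translation. In its proteomics, mtDNA-encoded subunits of the respiratory chain appeared more reduced than nuclear-encoded ones at early time points. The footprint estimates were not all lower, with those of MT-ND4L, MT-ND5, MT-ND6 and MT-CO1 positive. These are different measures, and they were not compared here.

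Of the 6 other mtDNA-encoded ORFs, which belong to complexes III, IV and V, 5 passed the threshold (83.3%). Of all genes tested 26.9% passed, and 36.3% of those at or above the median level. The 6 ORFs were far above it, with a median of 630 CPM. MT-CO1 rose (log2 fold change 0.34), while MT-CO3 (-0.48), MT-CYB (-0.35), MT-CO2 (-0.34) and MT-ATP6 (-0.33) fell, each with SE 0.05 or 0.06. MT-ATP8 had a log2 fold change of -0.02. The median of these 6 ORFs was -0.33 and that of the 7 complex I subunits was -0.12.

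In the N module, which oxidizes NADH, 2 of 10 nuclear subunits rose, 2 fell and 6 did not pass. The calls were 40.0% of the module, against 26.9% of all genes tested. NDUFV2, a core subunit with an iron-sulfur cluster, had 334, 338 and 356 CPM in sgCtrl and 429, 399 and 369 CPM in sgN6AMT1. The groups did not overlap, and occupancy rose by 0.22 on the log2 scale (edgeR adjusted p = 0.00198, SE 0.06). NDUFS4, an accessory subunit in which loss causes Leigh syndrome, had 81.9, 88.6 and 85.8 CPM against 117, 106 and 105 CPM, again without overlap. Its log2 fold change was 0.35 (edgeR adjusted p = 0.00227, SE 0.09).

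NDUFS1, the largest core subunit, which carries several iron-sulfur clusters, fell. It had 248, 245 and 234 CPM in sgCtrl and 215, 192 and 198 CPM in sgN6AMT1, with no overlap (log2 fold change -0.27, edgeR adjusted p = 0.0012, SE 0.07). The accessory subunit NDUFV3 had 127, 104 and 112 CPM in sgCtrl and 89.0, 98.9 and 89.0 CPM in sgN6AMT1, and every sgN6AMT1 value was the lower (log2 fold change -0.29, edgeR adjusted p = 0.0121, SE 0.09). Its call was lost with DESeq2, without sgCtrl replicate 1 and without sgN6AMT1 replicate 1, with adjusted p between 0.00236 and 0.119 over the alternatives. NDUFV3 is the only complex I member here on chromosome 21, at chr21:42893309-42913299, the chromosome that also carries N6AMT1. Of the 86 tested genes of chromosome 21, 37 were lower and 2 higher, with a median log2 fold change of -0.26. Beyond N6AMT1, 31 of 73 were lower and 1 was higher (median -0.22). The lower genes were 43.0% and 42.5% of these, against 13.9% of all genes tested. The part of this shift in the value of NDUFV3 was not tested. The remaining N module subunits ranged from -0.17 (NDUFA6) to 0.25 (NDUFA7).

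In the Q module, where ubiquinone is reduced, 1 of 5 subunits passed (20.0%, against 26.9% of all genes tested). NDUFA5, an accessory subunit of the peripheral arm, had 300.4, 306 and 284 CPM in sgCtrl and 208, 208 and 211 CPM in sgN6AMT1. The groups were well separated against their SDs (11.2 and 1.53 CPM), and occupancy fell by 0.51 (edgeR adjusted p = 2.2e-10, SE 0.06). The other 4 had small negative estimates that did not pass. These were NDUFS3 at -0.08, NDUFS7 at -0.06, NDUFS8 at -0.07 and NDUFA9 at -0.09, and each interval spanned 0.

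The proximal membrane arm had the largest share of calls among the modules, with 4 of 9 nuclear subunits higher and 2 lower. This was 66.7%, against 26.9% of all genes tested and 36.3% of those at or above the median level. Each module holds few genes, and the difference between modules was not tested. NDUFC2, an accessory membrane subunit, had 188, 197 and 198 CPM in sgCtrl and 296, 273 and 248 CPM in sgN6AMT1. All sgN6AMT1 values were higher, and the log2 fold change was 0.49 (edgeR adjusted p = 3.51e-09, SE 0.07). The table also lists the read-through gene NDUFC2-KCTD14, which can share footprints with NDUFC2, at 180 to 325 counts a library in sgCtrl and 273 to 317 in sgN6AMT1. Its log2 fold change was 0.36 (edgeR adjusted p = 7.91e-04, SE 0.09), and how footprints were divided between these genes is not stated, so both values are uncertain. NDUFA11, a membrane subunit that lies at the contact with complex III in supercomplexes, moved the other way. It had 56.3, 53.4 and 59.2 CPM in sgCtrl and 35.1, 34.6 and 40.7 CPM in sgN6AMT1, without overlap (log2 fold change -0.62, edgeR adjusted p = 4.44e-05, SE 0.12). NDUFA10, an accessory subunit related to nucleoside kinases, fell by 0.32 (edgeR adjusted p = 0.00358, SE 0.09).

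NDUFA3, NDUFA13 and NDUFA1 also rose in the proximal arm. NDUFA1, a small membrane-anchored subunit, had 320.5, 324 and 349.5 CPM in sgCtrl and 394, 403 and 384 CPM in sgN6AMT1, without overlap (log2 fold change 0.25, edgeR adjusted p = 3.93e-04, SE 0.06). NDUFA13, also known as GRIM-19, averaged 107 ± 1.98 CPM in sgCtrl and 134 ± 10.3 CPM in sgN6AMT1 (SD, n = 3 per group) (log2 fold change 0.32). NDUFA3 averaged 53.8 ± 6.13 and 71.5 ± 8.13 CPM (log2 fold change 0.39). NDUFA8, NDUFC1 and NDUFS5 did not pass, with log2 fold changes of 0.00, -0.01 and 0.08.

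In the distal membrane arm 3 of 10 nuclear subunits rose and 0 fell (30.0% called, against 26.9% of all genes tested). The edgeR unadjusted p was under 0.05 for 4 of the 10, against 36.8% of all genes tested. NDUFB4, an accessory subunit, had 188, 180.3 and 192 CPM in sgCtrl and 306, 293 and 257 CPM in sgN6AMT1. The groups were well separated, and its log2 fold change of 0.62 (edgeR adjusted p = 7.37e-13, SE 0.07) was the highest among nuclear-encoded members. NDUFB3 averaged 144 ± 6.50 CPM in sgCtrl and 175 ± 27.2 CPM in sgN6AMT1 (SD, n = 3 per group), and NDUFB6 202 ± 16.7 and 235 ± 23.9 CPM. Both passed (log2 fold changes 0.28 and 0.23) although their values overlapped between the groups. NDUFAB1, the mitochondrial acyl carrier protein that sits in both the N module and the distal arm, did not pass (log2 fold change 0.06, interval -0.06 to 0.17).

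Core and accessory subunits both held calls in each direction. Among the 6 nuclear-encoded core subunits 1 rose (NDUFV2) and 1 fell (NDUFS1), and among the 29 accessory subunits 8 rose and 4 fell. These were 33.3% and 41.4% of the subunits, against 26.9% of all genes tested.

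TIMMDC1 changed most of all the members. TIMMDC1 is a membrane protein needed to assemble the part of the membrane arm that contains MT-ND1. It had 61.8, 58.6 and 60.6 CPM in sgCtrl and 24.1, 15.6 and 21.7 CPM in sgN6AMT1, from 123, 170 and 123 counts against 55, 36 and 40 counts. The sgN6AMT1 values were all far below the sgCtrl values, and occupancy fell by 66.1% (log2 fold change -1.56, edgeR adjusted p = 2.52e-16, SE 0.14). All 16 alternatives kept this call, and the estimate lay between -1.71 and -1.38 on the log2 scale. MT-ND1 itself did not pass, as given above.

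The MCIA complex, which builds the part of the membrane arm around MT-ND2, had 2 of 4 members higher and 0 lower. NDUFAF1 had 51.7, 60.0 and 63.1 CPM in sgCtrl and 83.7, 72.1 and 66.2 CPM in sgN6AMT1, without overlap (log2 fold change 0.35, edgeR adjusted p = 0.0139, SE 0.11). TMEM126B averaged 81.4 ± 2.71 CPM in sgCtrl and 99.9 ± 6.08 CPM in sgN6AMT1 (SD, n = 3 per group) (log2 fold change 0.30, edgeR adjusted p = 0.0131, SE 0.10). ACAD9 and ECSIT had log2 fold changes of 0.26 and 0.01 and did not pass. MT-ND2 was among the genes that fell, as given above.

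Of the 7 factors for the Q module and the MT-ND1 part, NDUFAF3 rose and TIMMDC1 fell (28.6%, against 26.9% of all genes tested). NDUFAF3, which works together with NDUFAF4, had 33.7, 31.0 and 22.7 CPM in sgCtrl and 43.4, 34.1 and 49.4 CPM in sgN6AMT1, without overlap (log2 fold change 0.51, edgeR adjusted p = 0.00409, SE 0.15). NDUFAF4 had a log2 fold change of -0.11 (interval -0.29 to 0.06). NDUFAF5, NDUFAF6, NDUFAF7 and NUBPL, an iron-sulfur protein that serves complex I, lay between -0.11 and 0.16 and did not pass. The counts behind NUBPL (19 to 35 a library) and NDUFAF5 (22 to 39) were the lowest of all members, and their intervals spanned -0.61 to 0.38 and -0.51 to 0.42. The late factors NDUFAF2 and FOXRED1 had log2 fold changes of -0.20 and -0.11 and did not pass.

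**Figure D3:**
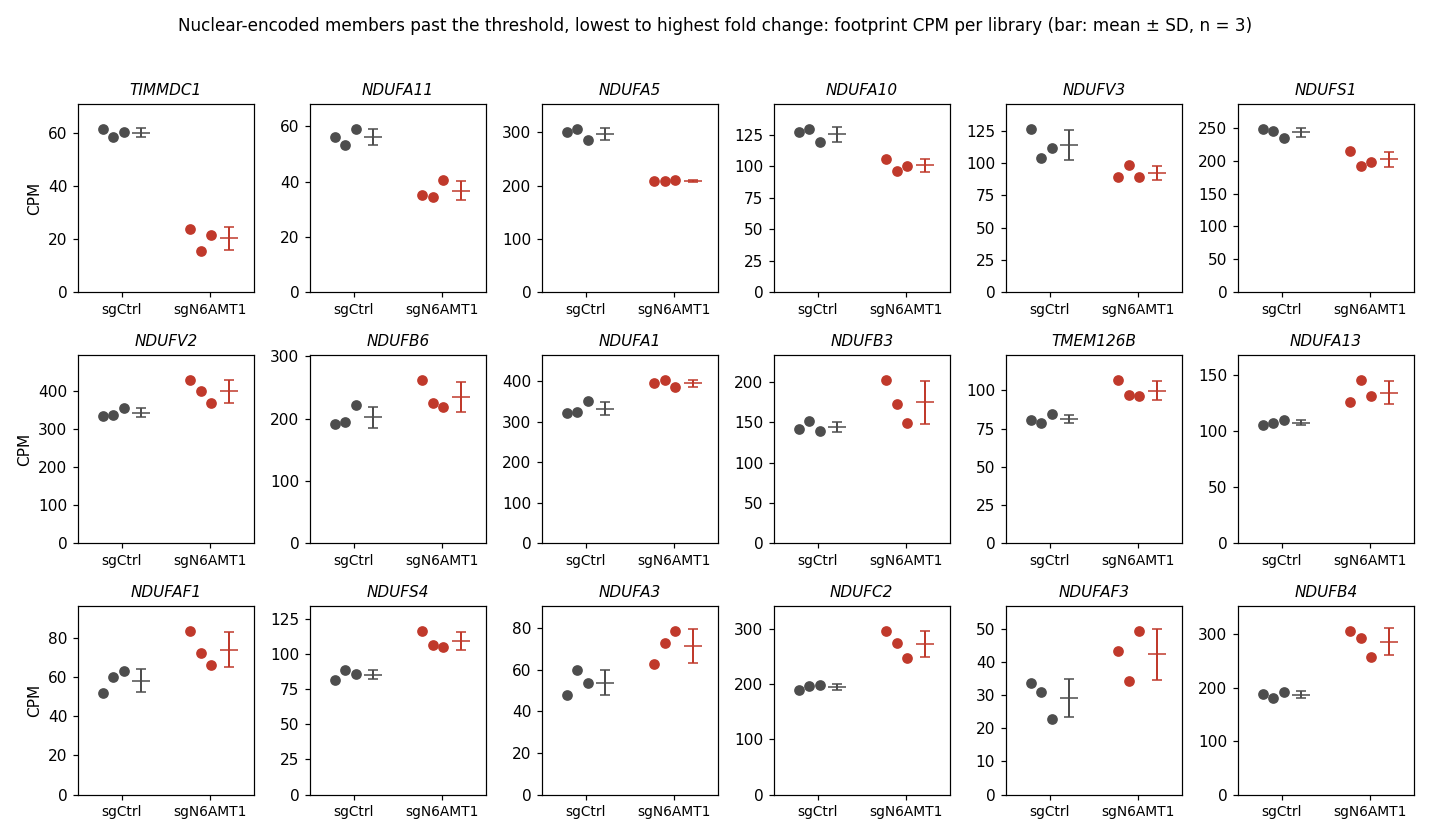
Footprint CPM (y axis, from 0, scaled for each gene) of the 18 nuclear-encoded complex I genes past the threshold, in each sgCtrl and sgN6AMT1 library, ordered from the lowest log2 fold change (TIMMDC1) to the highest (NDUFB4). Points are libraries in the order of replicates 1 to 3, and the bar beside them is the mean ± SD. The groups overlap in NDUFB3 and NDUFB6.

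Levels were compared between genes per kilobase of coding sequence for the 52 members whose listed transcript had an annotated length. NDUFS5 had the highest level, 1839 ± 72.8 CPM per kb (SD, n = 3) in sgCtrl, followed by NDUFA1 at 1556 ± 74.4 CPM per kb. MT-ND3 was the highest mtDNA-encoded subunit at 962 ± 69.0 CPM per kb, and MT-ND1 the lowest at 63.8 ± 10.6 CPM per kb, with both in the membrane arm. The nuclear subunits had a median level of 348 CPM per kb over all libraries, with NDUFA11 lowest at 67.7 CPM per kb. The mtDNA-encoded subunits had a median of 413 CPM per kb, and the assembly factors of 47.1 CPM per kb. The mtDNA-encoded levels come from mitochondrial ribosomes, and whether these were recovered as cytosolic ones were was not tested. All 13 assembly factors were below the nuclear-subunit median, and the highest of them was NDUFAF4 at 219 CPM per kb. Neighbours in this order often did not differ beyond their spread. For example, NDUFAB1 and NDUFB11 had 790 ± 72.1 and 795 ± 53.6 CPM per kb in sgCtrl.

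**Figure D4:**
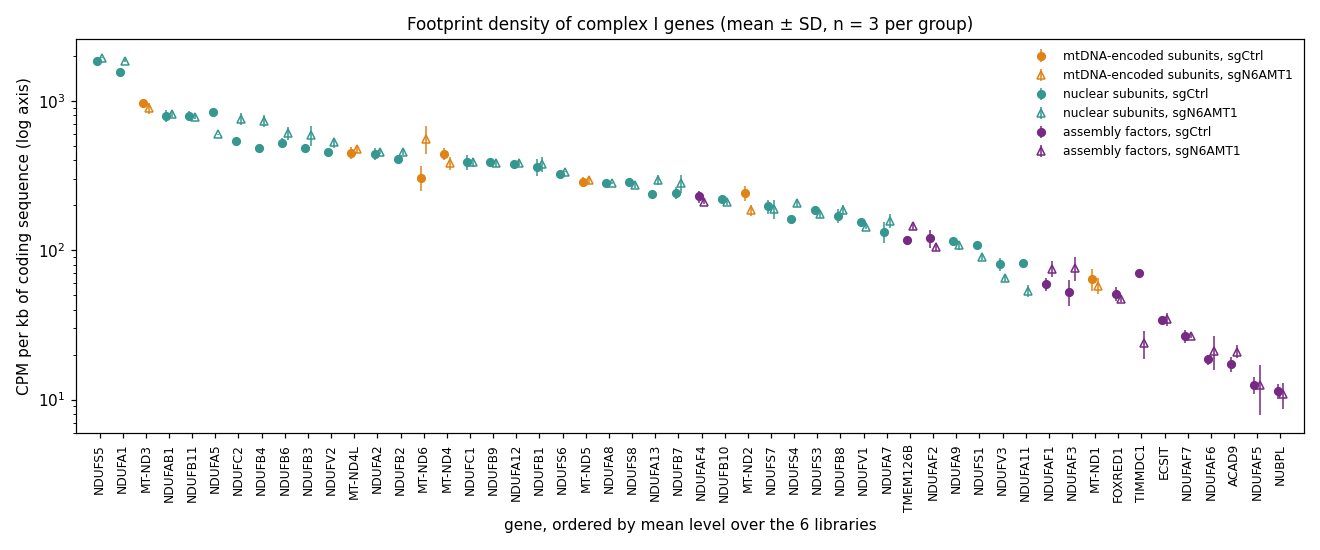
Footprint density in CPM per kb of coding sequence (log y axis) for the 52 complex I genes with a coding length, ordered by their mean over the 6 libraries. Filled circles are sgCtrl and open triangles sgN6AMT1, each a mean ± SD, and colour shows the class. Assembly factors lie in the lower part, from NDUFAF4 at 219 to NUBPL at 11.1 CPM per kb.

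Of the 48 nuclear-encoded members in the table, 45 listed transcripts were matched to the annotation, and 31 of these were MANE Select, the transcript chosen as representative for the gene. In 9 of the 14 others the coding length differed from that of the MANE Select transcript. NDUFA11 was among them, with 687 coding bases in the listed transcript and 426 in MANE Select. The level of such a gene per kb depends on this choice. For NDUFA3, NDUFA6 and NDUFA10 the listed transcript was not matched. Near copies are a further limit: by name, the annotation holds pseudogenes of all 7 mtDNA-encoded subunits and of 19 nuclear-encoded members, with 12 each for NDUFA5 and NDUFB4. Reads that a gene shares with such copies may have been placed with either, so values of these genes are uncertain to that extent.

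Stop codons of the 45 matched nuclear-encoded members were TAA in 15, TAG in 7 and TGA in 23, or 33.3%, 15.6% and 51.1%. Among 8593 genes tested with a complete coding sequence the shares were 29.7%, 21.2% and 49.1%. Of the members ending in TAA 6 rose and 1 fell, of those ending in TAG 2 rose and 0 fell, and of those ending in TGA 3 rose and 4 fell. Over all genes tested, 13.1% of those ending in TAA were higher and 16.3% lower, 14.1% and 13.4% of those ending in TAG, and 12.3% and 12.5% of those ending in TGA. Over all genes the median log2 fold changes were -0.01 for TAA, 0.03 for TAG and 0.01 for TGA. No test was run on these counts. In its own average over transcripts, the study saw no change of ribosome occupancy at stop codons in N6AMT1-depleted cells.

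The nuclear-encoded members that rose had shorter coding sequences at the median than those that fell, with overlapping ranges. The 11 higher members with a coding length had a median of 453 bases (213 to 984), the 5 lower ones 858 bases (351 to 2226) and the 29 that did not pass 528 bases (231 to 1866). When smooth trends of counts on coding length and GC content were removed from every library, the higher members had a median log2 fold change of 0.34 (0.32 before) and the lower members -0.52 (-0.51 before). The median over all nuclear subunits went from 0.04 to -0.03. The members were grouped here by their own calls, and NDUFA11 entered with the length of its listed transcript, which is not that of MANE Select. Neither the difference in length nor its part in the changes was tested.

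Of 10 further genes tied to complex I, TMEM70 rose and CHCHD4 fell (20.0% called, against 26.9% of all genes tested). TMEM70, a factor in assembly of ATP synthase and complex I, averaged 91.3 ± 9.51 CPM in sgCtrl and 108 ± 4.16 CPM in sgN6AMT1 (SD, n = 3 per group) (log2 fold change 0.26). CHCHD4, an oxidoreductase that imports cysteine-rich proteins into the intermembrane space, averaged 44.8 ± 4.08 and 31.0 ± 1.98 CPM (log2 fold change -0.52).

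Nuclear subunits of the other complexes with mtDNA-encoded parts were counted in the same way. In complexes III, IV and V, 8 of 38 nuclear subunits rose and 8 fell (42.1% called, median log2 fold change 0.00), against 9 and 5 of 35 in complex I (40.0% called, median 0.04). The counts were 2 higher and 1 lower of 9 for complex III, 4 and 1 of 11 for complex IV, and 2 and 6 of 18 for complex V. Of the named genes, COX8A (0.30) and COX6A1 (0.26) of complex IV rose, and UQCRC2 of complex III (-0.35) and ATP5PO of complex V (-0.25) fell. ATP5PO, like NDUFV3, lies on chromosome 21 beyond N6AMT1. The median was -0.22 there and -0.26 over the whole chromosome, and the part of this shift in the value of ATP5PO was not tested. For complex II, which has no mtDNA-encoded subunit, 1 of 8 genes rose (SDHAF4, an assembly factor, 1.21) and 2 fell (SDHD, -0.31, and SDHA, -0.19). The calls were 37.5% of the complex II genes. Of all genes tested 26.9% passed, and 36.3% of those at or above the median level. The difference in counts between complexes was not tested.

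Complex I needs iron-sulfur clusters and its substrate ubiquinone. Of 15 tested genes for iron-sulfur cluster biogenesis, NFS1, the cysteine desulfurase (log2 fold change 0.30), and BOLA3 (0.45) rose, and the chaperone gene HSPA9 (-0.39) was among the 2 that fell. These 4 were 26.7% of the list, close to the 26.9% of all genes tested. The list had a median of 28.0 CPM, and 17.5% of all genes below 35.4 CPM passed. Of 12 tested genes for coenzyme Q synthesis 0 rose and 2 fell: COQ2, the polyprenyltransferase of the pathway (-0.87), and COQ4 (-0.56). The edgeR unadjusted p was under 0.05 for 3 of the 12, and 16.7% passed after adjustment, both shares below those of all genes tested (36.8% and 26.9%). This list had a median of 27.4 CPM, and its 16.7% was near the 17.5% of genes of low level. Of the 12 estimates 10 were negative and 2 positive (median log2 fold change -0.14). No test was run on these signs.

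Of the 20 complex I genes past the threshold, 11 passed in every alternative run for them. These were MT-ND2, NDUFV2, NDUFS1, NDUFS4, NDUFA5, NDUFA1, NDUFA10, NDUFA11, NDUFC2, NDUFB4 and TIMMDC1. The others lost the call in 1 to 4 alternatives. With DESeq2 the calls of NDUFV3, NDUFA3, NDUFB3, NDUFB6, NDUFAF1, TMEM126B and NDUFAF3 were lost. Leaving out sgN6AMT1 replicate 1 ended those of NDUFV3, NDUFB3, NDUFB6, NDUFAF1 and TMEM126B, and leaving out sgN6AMT1 replicate 2 those of MT-ND4 and NDUFA13. Leaving out sgCtrl replicate 1 ended those of NDUFV3, NDUFA3, NDUFB6 and NDUFAF1, sgCtrl replicate 2 those of NDUFB6 and TMEM126B, and sgCtrl replicate 3 that of NDUFAF3. The highest adjusted p of each of these 9 genes over its alternatives lay between 0.064 (NDUFA13, edgeR) and 0.196 (NDUFB6, edgeR). Without sgN6AMT1 replicate 1 the log2 fold change of NDUFB3 was 0.16 and that of NDUFB6 was 0.14. All 20 genes kept their direction in all of these fits.

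**Figure D5:**
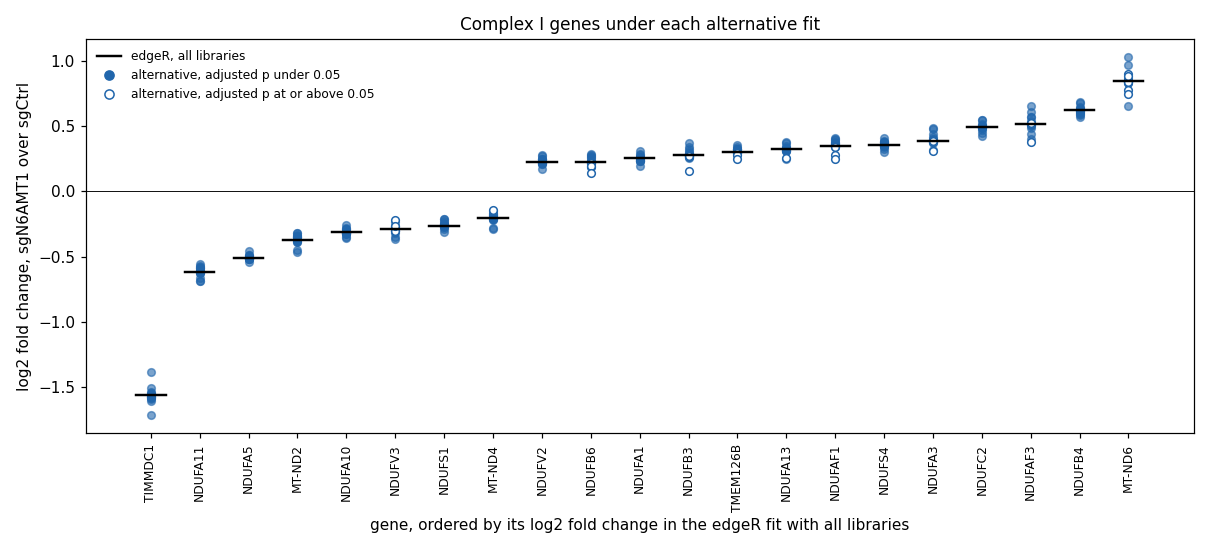
Log2 fold change (sgN6AMT1 over sgCtrl, y axis) of the 20 complex I genes past the threshold and MT-ND6 on the x axis. The black line is the edgeR fit with all libraries, and each circle is an alternative fit (filled where the adjusted p was under 0.05). No gene crosses 0, and MT-ND6 spans 0.65 to 1.03 with filled and open circles.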

How the data were processed

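Footprints of K562 cells were measured in 3 libraries of each group (sgCtrl, sgN6AMT1). Groups and replicate numbers follow the labels. The authors trimmed reads with cutadapt, mapped them with HISAT2 to GRCh38, removed rRNA and tRNA reads, aligned the rest to canonical transcripts with Bowtie2 and assigned P-sites with riboWaltz. The deposited table holds raw footprint counts per transcript, neither normalized nor pooled. The authors also counted by annotation overlap for DESeq2, and which counts the table holds is not stated. Molecular identifiers are not described, and intervals from counts alone would be too narrow.

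Counts were tested with edgeR 4.0.16 (R 4.3.3): filterByExpr at a minimum of 10 counts, TMM factors, robust quasi-likelihood F test, 2-sided, Benjamini-Hochberg adjustment over 9202 genes, threshold 0.05. The 10128 genes removed held 0.465% of counts. SEs and 95% intervals come from the F statistic. CPM use TMM-adjusted totals. Within groups, chi-square per degree of freedom between libraries was 1.25 to 1.68, so replicates differed by more than counting noise. Data were also simulated with the same dispersion for every gene (coefficient of variation between replicates 4.36%). There edgeR recovered 66% of genes changed by 0.5 on the log2 scale and 95% of those changed by 1 (100 each, 9181 genes). Of its calls 6.4% were false. The changed genes were all above a minimum mean count and far fewer than the real calls, so these are not rates for the real data. 

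Alternatives were DESeq2 1.42.0, limma-voom 3.58.1, upper-quartile and RLE factors, plain total counts, the mtDNA-encoded ORFs left out, no filter, a mean of at least 50 counts, the replicate number as a block, removal of coding length and GC trends (loess, span 0.5), and each library left out in turn. Transcripts were matched by identifier to GENCODE release 44 (17687 of 19330). Per-library values are given for the mtDNA-encoded subunits and members past the threshold, and of other lists for at most 4 genes each. The members, lists, alternatives and naming rule were chosen with earlier results of these data known. RNA sequencing was not used here. A few genes of the lists are not reported here by name.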

Additional observations from a re-analysis of the deposited data

How the results depend on the processing

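With DESeq2, fitted to 13622 genes without the edgeR filter on low counts, 1329 genes passed the threshold (588 higher, 741 lower). With edgeR 2473 of 9202 passed (1191 and 1282). Among complex I genes DESeq2 gave 1 mtDNA-encoded subunit higher (MT-ND6) and 2 lower. It gave 6 nuclear subunits higher and 4 lower, and 0 assembly factors higher and 1 lower. The same 1 call for MT-ND6 came with a mean of at least 50 counts. The replicate numbers did not pair the libraries (correlations of same-numbered deviations -0.19, 0.01 and -0.01), and a fit with the replicate block gave 2390 calls, with 1 mtDNA-encoded subunit higher and no other change in the complex I counts. Total counts without factors gave 1560 higher and 976 lower genes (38.5% lower, against 51.8%) and a nuclear-subunit median of 0.091. Removing coding length and GC trends gave a nuclear-subunit median of -0.032 and 6 nuclear subunits lower. The causes of these shifts were not tested.

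With each library left out in turn, calls ranged from 1859 to 2322 (906 to 1119 higher, 953 to 1203 lower). For complex I they ranged from 0 to 1 higher and 1 to 2 lower among mtDNA-encoded subunits, 8 to 9 higher and 4 to 6 lower among nuclear subunits, and 1 to 3 higher among assembly factors, where 1 was lower throughout. Class medians ranged from -0.17 to -0.04, 0.01 to 0.04 and -0.05 to 0.09. MT-ND5 was the only followed gene to change sign, with values of -0.022 to 0.088 over these fits and the negative one without sgCtrl replicate 3. Low counts limit NUBPL and NDUFAF5.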

Other observations

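TIMMDC1 and its nearest tested neighbour beyond its 3′ end moved in opposite directions. CD80, which encodes a costimulatory ligand of T cells and lies 2.4 kb away on the other strand of chromosome 3, had 8, 23 and 14 counts in sgCtrl and 43, 47 and 52 counts in sgN6AMT1. This was 6.28 ± 2.03 CPM (SD, n = 3) against 22.5 ± 5.05 CPM (SD, n = 3), or 1.76 higher on the log2 scale (edgeR adjusted p = 4.76e-09, SE 0.24). It was noticed after the values had been seen. Of the 7 tested genes within 500 kb of TIMMDC1, itself included, COX17, a copper chaperone for complex IV, also rose (log2 fold change 0.40, edgeR adjusted p = 0.0234). POGLUT1, 3.8 kb before TIMMDC1 on the same strand, had a log2 fold change of -0.32 and did not pass, nor did TMEM39A (-0.11), B4GALT4 (-0.21) and GSK3B (0.41). Of all genes tested 26.9% passed, and the window was set around the member that changed most.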
